A study of Mus musculus with 24 samples.

Results

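The integrated stress response genes described here are 37 genes of the mouse counts table, out of 43430 gene IDs. They comprise 10 genes of the eIF2 kinases, the eIF2 alpha subunit and the eIF2B complex, 2 regulatory subunits of the eIF2 phosphatase, 4 transcription factors, 6 stress effectors, 6 genes of serine and mitochondrial one-carbon metabolism, 5 other amino acid synthesis genes and 4 amino acid transporter genes. They were taken by symbol from a given list and not by their values. The libraries, 4 in each of 6 groups, are RNA-seq of lung macrophages sorted from mice of the inbred strain C57BL/6J. Siglec F-high alveolar macrophages came from young naive, old naive, young asbestos and old asbestos mice, and Siglec F-low alveolar macrophages from young asbestos and old asbestos mice. Young mice were 8 to 12 weeks old and old mice more than 18 months, per the sample labels, and asbestos had been given 28 days before, per the series text. The labels name no transgene and no drug, and nothing in them says that the libraries of a group came from separate animals, so the p-values measure the spread between these libraries only. The series text speaks of tissue-resident and monocyte-derived cells, while the labels name the sorts by Siglec F alone, and the labels are followed here.

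In the integrated stress response, kinases that sense different stresses (HRI, PKR, PERK and GCN2) phosphorylate the alpha subunit of the translation initiation factor eIF2. Phosphorylated eIF2 inhibits eIF2B, the guanine nucleotide exchange factor that reloads eIF2 with GTP, so that general translation slows while a few messages, Atf4 among them, are translated better. The transcription factor ATF4 then raises genes of amino acid synthesis, transport and stress adaptation, and a phosphatase directed by GADD34 (Ppp1r15a) or CReP (Ppp1r15b) takes the phosphate off again. ISRIB, which the series title names, is a small molecule that stabilises eIF2B and blunts the response. Phosphorylation of eIF2 and translation of Atf4 are steps that RNA counts do not measure, so the counts bear on the levels of the messages only. In alveolar macrophages, the phagocytes of the air spaces, amino acid supply and protein secretion are routine loads on this pathway.

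ATF4 acts with C/EBP partners on a composite element, TGATGNAA, where N is any base, and it was looked for because Asns and Slc7a11, which differed between groups, are known as ATF4 targets. The window was the 250 bases before each RefSeq start on GRCm38.p6, read on both strands. The letters were found in 3.45% of 32851 promoter windows (3.91% of 27025 genes), and in 7 of the 32 members that have a window: Asns, Slc7a11, Chac1, Nupr1, Pck2, Pycr1 and Vldlr. The stricter TGATGCAA, which is one form of the first, was in 0.791% of windows and in 5 of these members. The 5 below are the members with a match that passed the filter on low counts; Pycr1 and Vldlr did not pass it and are not shown. In these sequences the capitals mark the match, in the gene's own 5′ to 3′ direction. A match on the opposite strand is shown as the gene's own strand reads.
Asns, minus strand, chr6:7693214-7693243: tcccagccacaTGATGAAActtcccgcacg
Slc7a11, minus strand, chr3:50443615-50443739: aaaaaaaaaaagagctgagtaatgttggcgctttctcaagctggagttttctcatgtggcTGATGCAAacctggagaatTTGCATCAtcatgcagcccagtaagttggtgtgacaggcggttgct
Chac1, plus strand, chr2:119350992-119351116: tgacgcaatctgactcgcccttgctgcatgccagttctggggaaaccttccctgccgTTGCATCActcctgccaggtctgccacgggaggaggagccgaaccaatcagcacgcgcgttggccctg
Nupr1, minus strand, chr7:126625562-126625591: aaagggccagaTTGCATCAgacagggcttg
Pck2, plus strand, chr14:55540103-55540230: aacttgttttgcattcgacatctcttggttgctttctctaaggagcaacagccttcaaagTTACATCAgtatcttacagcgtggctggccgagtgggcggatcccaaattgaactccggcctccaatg
The Asns match lay 23 to 16 bases before the RefSeq start and the Slc7a11 promoter held the element on each strand, at 66 to 59 and 47 to 40 bases. By the GENCODE M21 models, which are used for the gene positions given below, the Asns and Nupr1 matches lie inside an exon of the gene, so for these 2 genes the matched bases are not upstream of the GENCODE model, and only 30 bases are shown. The windows of Trib3, Atf5, Mthfd2 and 22 other members held no match, which says only that these letters are not in that window. A match is a description of the letters and no evidence of binding. The list was drawn up in part from genes known as ATF4 targets, so a larger share of matches than among all genes is no separate result.

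Of the 24 libraries, 22 held 13423080 to 18124526 counts. In these, 17069 to 18820 genes were detected, and genes related to rRNA took 0.264 to 0.654% of the counts. Replicate 3 of the young asbestos Siglec F-high group had counts in 12528 genes, and replicate 3 of the old asbestos Siglec F-high group had 3894699 counts, 58.9% of them on rRNA-related genes. These 2 libraries were left out of the values below unless all 24 libraries are named, so a mean ± SD is over 4 libraries, or over 3 in the asbestos Siglec F-high groups. Levels are CPM, the counts of a gene relative to a library total scaled by TMM factors. A gene was called at an edgeR adjusted p under 0.05 over the 13629 genes tested, and differences are log2 fold changes ± standard error (SE). Of the 37 members 34 passed the filter on low counts. Vldlr, the very low density lipoprotein receptor, Cth, which makes cysteine from cystathionine, and Pycr1, the last step of proline synthesis, did not, with at most 6, 2 and 8 counts in any of the 22 libraries. Transcription was sampled from sorted bulk cells, where fewer cells of a type and less RNA per cell cannot be told apart.

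Asns, Trib3, Atf5, Mthfd2 and Slc7a11 took 18 of the 34 calls given below. They are picked out by values of these same data, so their range between groups is no separate result. Their highest group mean was 5.03, 2.80, 2.27, 2.06 and 8.65 times their lowest, and for all 5 the highest mean was in old asbestos Siglec F-low libraries and the lowest in young naive libraries. For Atf4 itself this ratio was 1.18, and for the 10 genes of the kinases, eIF2 alpha and eIF2B it was 1.07 to 1.32. Slc7a5, also called in several comparisons, differed from these 5 in having its lowest mean in young Siglec F-low libraries. With 22 libraries edgeR called 15 of the 34 members in at least 1 of 10 comparisons, in 34 calls, and with all 24 libraries 8 members in 11 calls, all of them among the 34. The share of all genes called in at least 1 of the 10 was not counted, so these totals are no result about the members. The mean age difference alone called 22.6% of all genes tested with 22 libraries and 9.62% with 24.

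Old against young was asked 3 times. In naive Siglec F-high cells edgeR called 2 members higher in old and 0 lower, Asns and Aldh1l2, where it called 8.03% of all genes tested (5.11% higher and 2.91% lower; 0 members and 2.03% of genes with 24 libraries). Among asbestos Siglec F-high libraries it called Trib3 higher and Shmt2 lower, against 7.32% of all genes (4.84% higher and 2.47% lower; 0 members and 4.76% with 24 libraries). In asbestos Siglec F-low cells it called 3 members higher and 0 lower, Atf5, Slc7a5 and Slc7a1, against 7.21% of all genes (3.8% higher and 3.41% lower), and Slc7a1 alone with 24 libraries, against 1.29%. These shares of members, 5.88% to 8.82%, were near those of all genes. The mean of the 3 age differences, which uses all the same libraries, gave 10 members higher in old and 2 lower, 35.3% of the 34 members against 22.6% of all genes (12.9% higher and 9.7% lower), and 4 members with 24 libraries, against 9.62%. Chac1 and Aldh1l2, both among those called higher, passed the filter on low counts through old libraries only, so their calls are tied to that filter. The members' median log2 difference was 0.08, 0.04 and 0.07 in the 3 pairs, and that of all genes 0.00, 0.01 and 0.00. An epithelial marker list moved with age as well: its 8 genes summed to 189 to 293 CPM in young and 303 to 414 CPM in old naive libraries, and to 219 to 267 CPM in young and 283 to 386 CPM in old asbestos Siglec F-high ones. In Siglec F-low libraries the sums, 179 to 260 and 256 to 351 CPM, overlapped, and the part of such cells in the age differences was not tested.

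After asbestos, young Siglec F-high cells differed from naive ones in 3 called members, Slc7a11 higher and Ppp1r15a and Cebpg lower, against 5.06% of all genes (3.48% higher and 1.58% lower). In old Siglec F-high cells the call was Slc7a11 alone, higher after asbestos, against 4.12% of all genes (3.16% higher and 0.969% lower). With 24 libraries 2 members were called in young, Slc7a11 and Ppp1r15a, against 1.9% of all genes, and 0 in old, against 0.78%. Between the sorts of young asbestos lungs 7 members were called, 20.6% of the 34 against 12% of all genes (7.42% higher and 4.6% lower): Trib3, Asns, Mthfd2, Atf5 and Slc7a11 were higher in Siglec F-low cells, and Slc7a5 and Aldh18a1 were lower. In old asbestos lungs 4 members were called, all higher in Siglec F-low cells, against 11.6% of all genes (6.3% higher and 5.28% lower): Atf5, Ppp1r15a, Mthfd2 and Trib3. With 24 libraries 1 member was called between the young sorts, Asns, against 4.99% of all genes, and 3 between the old ones, Atf5, Ppp1r15a and Mthfd2, against 4.3%. The asbestos, sort and age comparisons share the asbestos Siglec F-high libraries, so their calls are not independent of each other.

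Whether asbestos or the sort acted differently by age was asked with 2 interactions, where edgeR called 0 members, against 0.0147% of all genes in each (0% with 24 libraries). At an unadjusted p under 0.05, which some genes pass without any difference, there were 2 of the 34 members in each. For age and asbestos these were Ppp1r15a (0.35 ± 0.16, edgeR adjusted p 0.958) and Phgdh (-0.32 ± 0.14, 0.956). For age and sort they were Slc7a1 (0.56 ± 0.17, edgeR adjusted p 0.464) and Slc7a5 (0.46 ± 0.18, 0.692). DESeq2, limma voom with all 24 libraries and the other alternatives also called 0 members. The median SE over all genes was 0.19 and 0.20 for the interactions, against 0.13 to 0.15 for a comparison of 2 groups, so they resolve only larger differences.

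**Figure D1:**
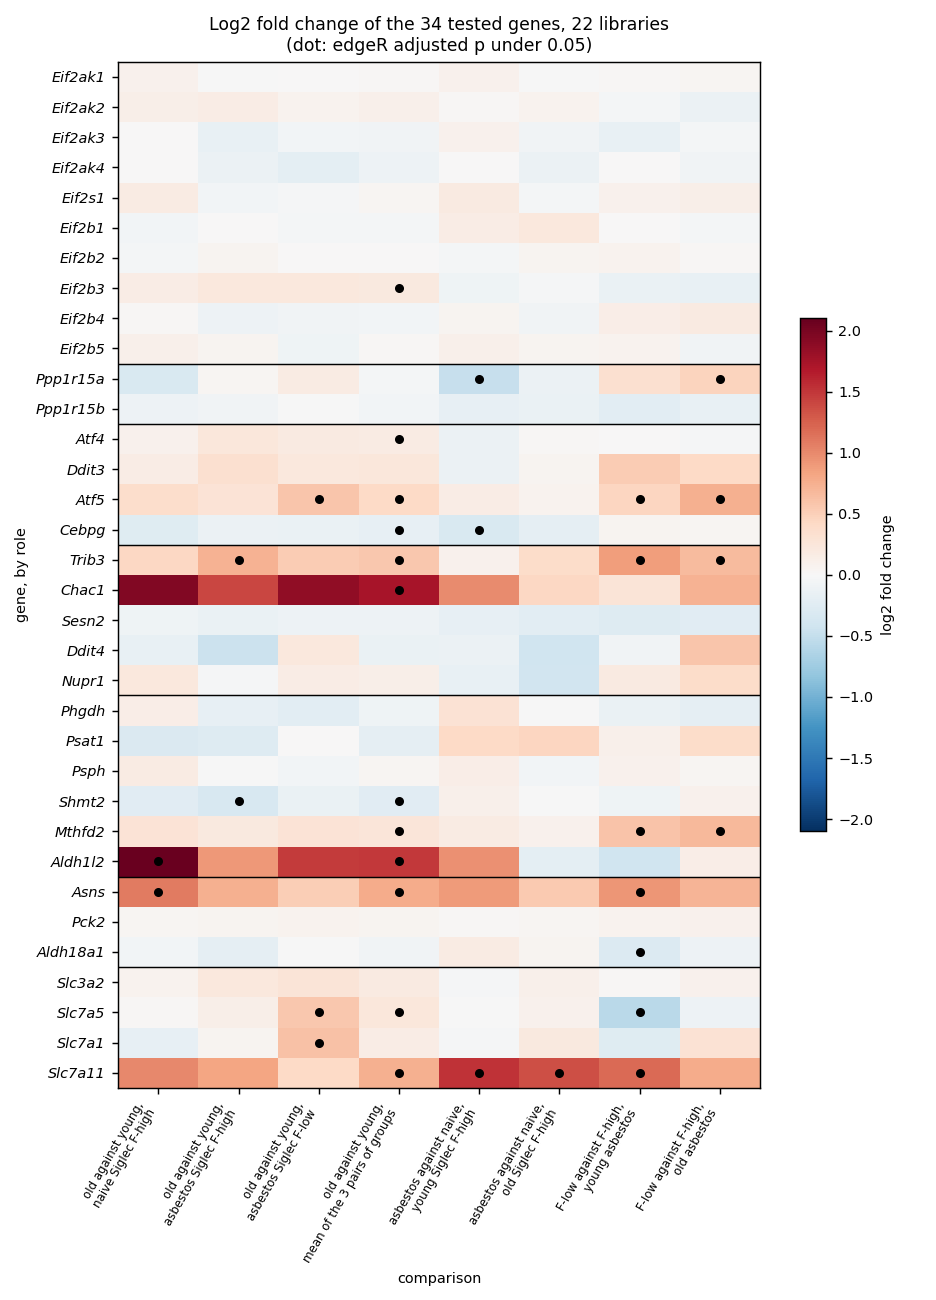
Log2 fold change of the 34 tested members (vertical axis, ordered by role) in the 7 comparisons of 2 groups and the mean age difference (horizontal axis), with 22 libraries. Red is higher and blue lower in the first-named group, and a dot marks an edgeR adjusted p under 0.05. The upper 10 genes, the kinases, eIF2 alpha and eIF2B, are near white throughout with 1 dot, and the strongest red is in Chac1, Aldh1l2, Asns and Slc7a11.

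The 4 kinases were expressed in every library. Eif2ak1, the heme-regulated kinase HRI, was at 76.2 to 90.3 CPM, Eif2ak2, the double-stranded RNA sensor PKR, at 30.6 to 41.1 CPM, Eif2ak3, the endoplasmic reticulum kinase PERK, at 58.3 to 78.0 CPM, and Eif2ak4, the amino acid sensor GCN2, at 38.7 to 61.8 CPM. Eif2s1, the eIF2 alpha subunit that they phosphorylate, was at 49.0 to 75.1 CPM. Eif2s1 was at 54.2, 55.6, 49.0 and 50.3 CPM in young naive libraries, all below the young asbestos Siglec F-high ones at 66.6, 55.9 and 56.2. Eif2ak3 was lower in all young Siglec F-low libraries, at 65.2, 62.3, 66.6 and 67.8 CPM, than in the young Siglec F-high ones, at 69.2, 71.7 and 78.0. Old asbestos Siglec F-high libraries, at 60.1 to 69.1 CPM, were also below these young ones. Eif2ak2 was higher in old than in young asbestos Siglec F-high libraries, at 35.6 to 41.1 against 32.9 to 35.3 CPM. In old lungs Siglec F-low libraries were above Siglec F-high ones for 2 genes. These were Eif2ak1 (85.6 to 90.3 against 83.1 to 85.2 CPM) and Eif2s1 (58.7 to 67.8 against 56.7 to 57.9 CPM). Eif2ak4 overlapped in each comparison of 2 groups. Groups this small can separate in some genes without any difference. The share of all genes without overlap was not set beside these cases. Here and below, a lack of overlap alone is therefore no evidence of a difference. edgeR called 0 of these 5 genes in any comparison, as did DESeq2, while limma voom with 24 libraries called Eif2s1 higher in old naive cells (adjusted p 0.0469).

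eIF2B has 5 subunits, of which epsilon (Eif2b5) carries the catalytic part with gamma (Eif2b3), and alpha, beta and delta (Eif2b1, Eif2b2 and Eif2b4) form the regulatory core that binds phosphorylated eIF2. Eif2b1 was at 21.7, 27.0, 19.4 and 22.1 CPM in young naive, 23.4, 19.9, 17.8 and 25.03 in old naive, 27.6, 22.5 and 24.9 in young asbestos Siglec F-high, 26.3, 23.2 and 25.8 in old asbestos Siglec F-high, 25.1, 25.1, 24.5 and 25.9 in young asbestos Siglec F-low and 24.9, 22.8, 25.1 and 24.99 in old asbestos Siglec F-low libraries. Eif2b2, in the same order, was at 38.4, 43.2, 34.6 and 34.1, then 38.1, 33.1, 37.1 and 36.8, then 36.8, 37.2 and 35.6, then 37.1, 39.9 and 36.7, then 41.1, 39.9, 34.8 and 38.7, and 34.4, 40.6, 43.0 and 36.9 CPM. Both genes overlapped in each of the 7 comparisons of 2 groups, and their group means lay within 1.17 and 1.07 times of each other.

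Eif2b4 was at 17.7, 19.6, 16.1 and 14.2 CPM in young naive, 17.7, 17.2, 17.3 and 16.2 in old naive, 16.2, 18.98 and 17.5 in young asbestos Siglec F-high, 15.5, 18.9 and 14.1 in old asbestos Siglec F-high, 19.999, 18.1, 19.3 and 20.3 in young asbestos Siglec F-low and 16.7, 20.7, 17.7 and 18.9 in old asbestos Siglec F-low libraries. Eif2b5, in the same order, was at 41.4, 37.3, 36.2 and 37.7, then 37.6, 44.5, 40.3 and 42.8, then 44.2, 38.1 and 41.6, then 44.5, 47.3 and 37.2, then 44.3, 48.8, 40.3 and 41.0, and 46.4, 39.7, 39.0 and 37.7 CPM. Both overlapped in each comparison of 2 groups and neither was called. The summed level of the 10 genes lay between 410.2 and 454.9 CPM in all 22 libraries, with young naive libraries at the low end, at 410.2 to 430.6 CPM, and old naive ones at 432.6 to 454.9 CPM. In asbestos lungs young and old overlapped, with the old median the lower. Siglec F-high libraries held 430.2 to 453.3 CPM in young and 425.7 to 443.9 in old, and Siglec F-low ones 435.8 to 452.5 and 426.6 to 442.3.

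Eif2b3 (ENSMUSG00000028683, chromosome 4, 117019402 to 117087306, plus strand) was at 17.6, 21.4, 14.02 and 15.5 CPM in young naive against 18.7, 22.7, 16.6 and 18.4 in old naive libraries, at 16.7, 16.3 and 15.1 against 17.9, 21.6 and 16.7 in asbestos Siglec F-high, and at 15.1, 14.9, 14.1 and 13.9 against 17.2, 18.1, 15.7 and 16.4 in asbestos Siglec F-low libraries. Young and old overlapped in the first pair and in the second, and every old Siglec F-low library was above every young one. The mean age difference was 0.20 ± 0.07 (edgeR adjusted p 0.046), the only edgeR call among the 10 genes. At an unadjusted p under 0.05 there was 1 of the 10 in old against young naive cells, 1 in young cells after asbestos and 0 in the other 5 comparisons of 2 groups. The Eif2b3 call was lost in 17 of the 22 fits that left out 1 library (adjusted p 0.0514 to 0.130) and with all 24 libraries (0.09, 0.632). Over the 10 genes, the 7 comparisons of 2 groups and the mean age difference, the log2 fold changes were -0.21 to 0.23, and their normal 95% intervals reached from -0.41 (Eif2ak4, old against young, asbestos Siglec F-low) to 0.49 (Eif2b3, old against young, asbestos Siglec F-high).

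**Figure D2:**
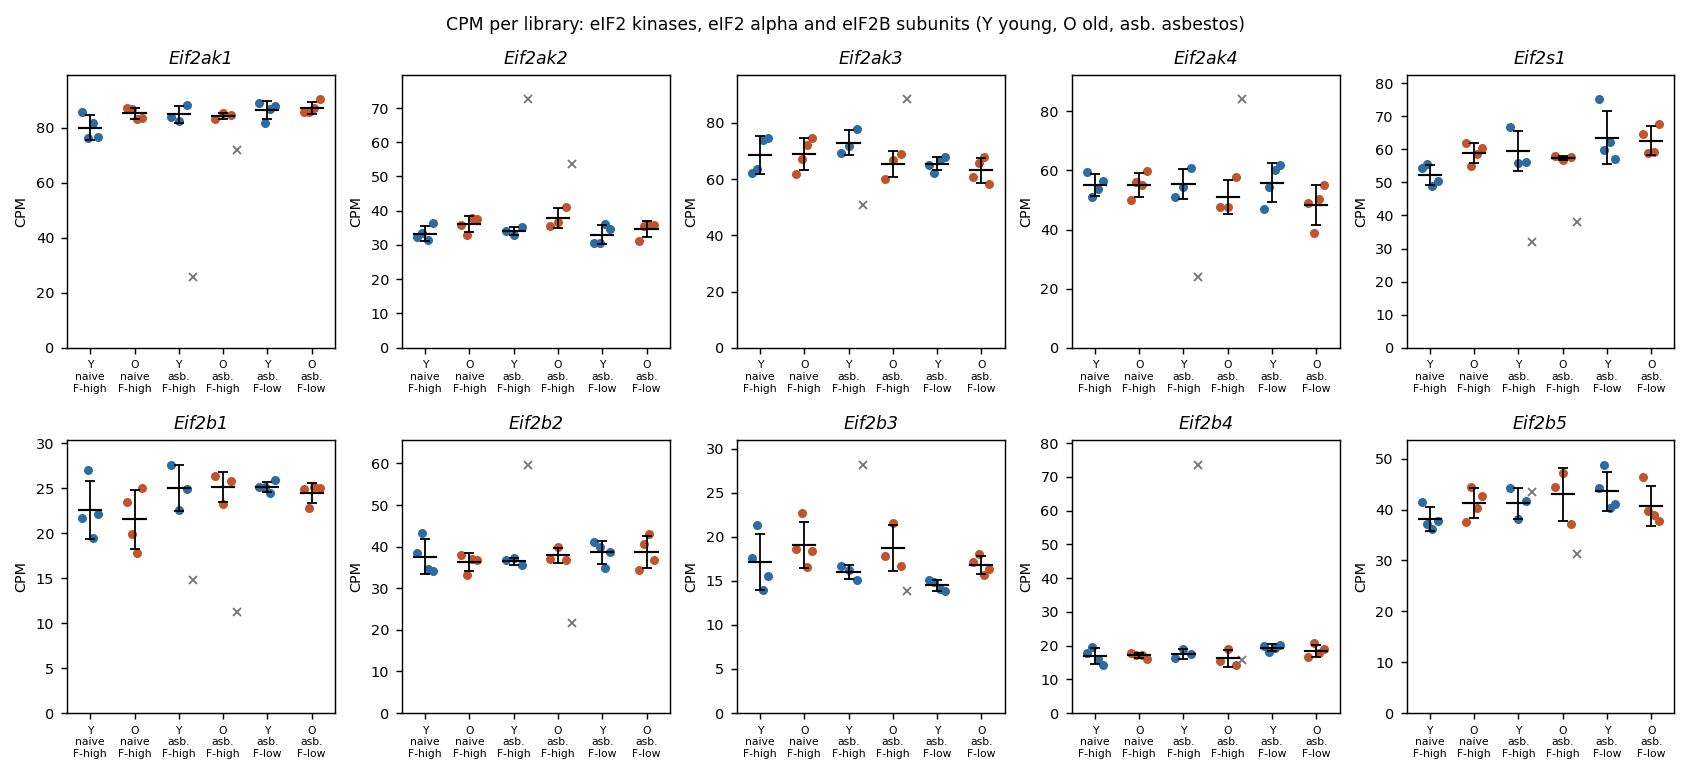
CPM per library (vertical axis, from 0) of the 4 eIF2 kinases, Eif2s1 and the 5 eIF2B genes by group (horizontal axis; Y young in blue, O old in orange). Circles are the 22 libraries of the fit, bars their mean ± SD, and grey crosses the 2 libraries left out, which lie far from their group for several genes, such as Eif2b4 at 73.6 CPM against 16.2 to 18.98. Within a panel the group means differ by at most 1.32 times.

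Of the subunits that direct the eIF2 phosphatase, Ppp1r15b, the constitutive one, was the more abundant, at 44.5 CPM per kb of exon against 14.96 for Ppp1r15a, the stress-induced one. Ppp1r15a (ENSMUSG00000040435, chromosome 7, 45522916 to 45526268, minus strand) was at 41.8, 54.8, 52.7 and 51.3 CPM in young naive and 40.3, 45.2, 33.8 and 41.9 in old naive libraries. Among asbestos Siglec F-high libraries it was at 33.8, 42.7 and 31.4 in young and 35.6, 36.7 and 38.5 in old, and among Siglec F-low libraries at 44.9, 48.0, 46.0 and 42.5 in young and 48.2, 47.0, 50.1 and 59.3 in old. The asbestos Siglec F-high means were the lowest, at 36.0 ± 5.96 CPM in young and 36.9 ± 1.43 in old, and the young naive and old Siglec F-low means the highest.

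Ppp1r15a fell after asbestos in young Siglec F-high cells (-0.48 ± 0.11, edgeR adjusted p 0.0138, 0.0247 with 24 libraries), although 1 naive library overlapped with 1 asbestos library. This call was lost without young asbestos Siglec F-high replicate 1 (adjusted p 0.111) or 4 (0.0924), and with only the 2 groups compared (0.0700). In old mice the same difference was -0.13 ± 0.11 (edgeR adjusted p 0.62). Ppp1r15a was higher in Siglec F-low than in Siglec F-high cells of old asbestos lungs (0.47 ± 0.11, edgeR adjusted p 0.00758, 0.0343 with 24 libraries), with every F-low library above every F-high one. In young lungs it differed by 0.33 ± 0.11 (edgeR adjusted p 0.0581). Ppp1r15a is also an immediate early gene that responds to handling of cells. Of the 18 genes of a handling list, which does not hold Ppp1r15a, edgeR called 9 lower and 0 higher after asbestos in young Siglec F-high cells, with a list median of -0.52, and 7 lower and 1 higher in old. Rhob, a small GTPase gene of that list, fell by 0.90 in young (edgeR adjusted p 4.06e-05). In old lungs the Siglec F-low cells had 0 of the 18 higher and 1 lower. The part of handling in the Ppp1r15a values was not tested. Ppp1r15b was at 209 to 325 CPM and was not called in any comparison. Its lowest adjusted p was 0.0518, for -0.22 ± 0.07 in Siglec F-low against Siglec F-high cells of young asbestos lungs (edgeR).

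Among the transcription factors, Atf4 (ENSMUSG00000042406, chromosome 15, 80255184 to 80257541, plus strand), the central factor of the response, was the second most abundant member per length, at 85.4 CPM per kb, after Slc3a2 at 100.4. It was at 193, 216, 197 and 196 CPM in young naive, 251, 225, 170.3 and 206 in old naive, 203, 186 and 161 in young asbestos Siglec F-high, 201, 228 and 217 in old asbestos Siglec F-high, 213, 189, 172 and 163 in young asbestos Siglec F-low and 206, 203, 218 and 216 in old asbestos Siglec F-low libraries. The groups overlapped in each comparison of 2 groups and none was called, and the mean age difference was 0.17 ± 0.06 (edgeR adjusted p 0.0392). That call was lost in 13 of the 22 fits that left out 1 library (adjusted p 0.0570 to 0.104) and with 24 libraries (adjusted p 0.736).

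Ddit3 (ENSMUSG00000025408, chromosome 10, 127290774 to 127296288, plus strand), which encodes CHOP, a factor induced downstream of ATF4, was at 9.31, 10.4, 11.3 and 11.3 CPM in young naive and 17.003, 10.1, 8.62 and 11.4 in old naive libraries. In asbestos lungs the Siglec F-high libraries held 11.8, 9.39 and 7.97 in young and 13.04, 8.73 and 15.2 in old, and the Siglec F-low libraries 15.2, 15.6, 13.8 and 11.8 in young and 13.98, 12.7, 16.7 and 22.3 in old. The ranges overlapped in each comparison of 2 groups, and none was called. The largest difference was 0.53 ± 0.22 between the sorts of young lungs (edgeR adjusted p 0.125), and old naive replicate 1 was above all other naive libraries. Exons of Ddit3 overlap exons of Mars on the opposite strand by annotation, and without a known strand setting their reads cannot be told apart.

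Atf5 (ENSMUSG00000038539, chromosome 7, 44812256 to 44816658, minus strand), a factor of the same family that supports the mitochondrial stress response, was at 22.005, 25.8, 26.2 and 23.2 CPM in young naive and 28.0, 28.6, 26.9 and 42.8 in old naive libraries. It was at 26.4, 29.0 and 25.6 in young and 34.8, 33.9 and 30.6 in old asbestos Siglec F-high libraries, and at 34.5, 39.8, 35.8 and 37.6 in young and 58.3, 46.4, 58.8 and 57.5 in old Siglec F-low libraries. Every Siglec F-low library was above every Siglec F-high library of the same age from asbestos lungs, and every old library was above every young one within each of the 3 kinds of cell.

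Atf5 was higher in Siglec F-low than Siglec F-high cells in old lungs (0.74 ± 0.13, edgeR adjusted p 0.000343, 0.0305 with 24 libraries) and in young lungs (0.45 ± 0.13, 0.0211, 0.106 with 24). The call in young lungs was lost without young asbestos Siglec F-high replicate 1 (adjusted p 0.0596) or 4 (0.0938) or young Siglec F-low replicate 2 (0.0649). Atf5 was higher in old than young Siglec F-low cells (0.58 ± 0.11, edgeR adjusted p 0.00243, 0.435 with 24 libraries), and by 0.42 ± 0.07 in the mean age difference (0.00014, 0.0523 with 24). In naive cells the age difference was 0.38 ± 0.12 and not called (edgeR adjusted p 0.0517). The libraries left out held 11.1 and 12.1 CPM, below all others. Exons of Atf5 overlap 164 bases of Nup62 and Il4i1 exons on the opposite strand, so part of its reads may be theirs.

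Cebpg (ENSMUSG00000056216, chromosome 7, 35046422 to 35056573, minus strand), a C/EBP partner of ATF4, went the other way with age. It was at 136, 168, 156 and 163 CPM in young naive against 129, 130.3, 129 and 133 in old naive libraries, at 111, 131 and 130.1 against 101, 117 and 124 in asbestos Siglec F-high, and at 118, 131, 129 and 137 against 104, 111, 126 and 128 in Siglec F-low libraries. Every old naive library was below every young one, and the other pairs overlapped. Its mean age difference was -0.17 ± 0.05 (edgeR adjusted p 0.0162, 0.0696 with 24 libraries). It fell after asbestos in young Siglec F-high cells (-0.33 ± 0.09, edgeR adjusted p 0.0357), a call lost in 6 of the 22 fits that left out 1 library (adjusted p 0.0514 to 0.261) and with only the 2 groups compared (0.0941). With the library that was left out, which held 230.1 CPM, this difference was -0.05 (edgeR adjusted p 0.886).

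Of the stress effectors, Trib3 (ENSMUSG00000032715, chromosome 2, 152337422 to 152344032, minus strand), a pseudokinase that restrains ATF4 and AKT, was at 3.65, 3.51, 3.35 and 3.91 CPM in young naive and 7.01, 3.04, 4.05 and 5.41 in old naive libraries. The asbestos Siglec F-high libraries held 4.18, 3.90 and 3.36 in young and 6.04, 6.30 and 6.82 in old, and the Siglec F-low libraries 7.66, 7.19, 6.51 and 6.69 in young and 11.2, 10.5, 7.195 and 11.5 in old. The naive groups overlapped, and every Siglec F-low library was above every Siglec F-high library of its age. Trib3 was higher in Siglec F-low cells by 0.87 ± 0.21 in young lungs (edgeR adjusted p 0.00689, 0.0826 with 24 libraries) and by 0.66 ± 0.20 in old lungs (0.0314, 0.421 with 24). The second of these was lost in 6 of the 22 fits that left out 1 library, each time a library of 1 of these 2 groups (adjusted p 0.0557 to 0.118).

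With age, Trib3 was higher in old asbestos Siglec F-high cells (0.74 ± 0.22, edgeR adjusted p 0.046), a call at the threshold that was lost in 16 of the 22 fits that left out 1 library and with all 24 (adjusted p 0.126). Its mean age difference was 0.57 ± 0.12 (edgeR adjusted p 0.000928, 0.0788 with 24 libraries). The library left out of the young asbestos Siglec F-high group held 0.103 CPM.

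Chac1 (ENSMUSG00000027313, chromosome 2, 119351229 to 119354381, plus strand), an enzyme that degrades glutathione and a marker of the ATF4 branch, was near the detection limit, with 2, 0, 4 and 2 counts in young naive and 4, 1, 14 and 11 in old naive libraries. It had 5, 4 and 3 counts in young and 11, 12 and 5 in old asbestos Siglec F-high libraries, and 0, 5, 8 and 5 in young and 21, 18, 10 and 14 in old Siglec F-low libraries. Scaled to CPM, every old library of asbestos lungs was above every young one of its sort, at counts no higher than 21. No comparison of 2 groups was called, and the mean age difference was 1.73 ± 0.40 (edgeR adjusted p 0.00271, 0.00692 with 24 libraries), a size that depends on how such low counts are modelled. No young library reached the filter's minimum count of 10 for Chac1, so it passed the filter through old libraries only. Its call as higher in old is therefore tied to that filter. Of the other effectors, Sesn2, a leucine sensor that restrains mTORC1, was at 30.2 to 49.2 CPM. Ddit4, another inhibitor of mTORC1, was at 0.780 to 4.13 CPM, and Nupr1, a stress-induced chromatin protein, at 12.5 to 23 CPM. None of these 3 was called in any comparison.

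Among the serine and one-carbon genes, Mthfd2 (ENSMUSG00000005667, chromosome 6, 83305691 to 83325908, minus strand), the mitochondrial folate enzyme that is a standard ATF4 target, was at 14.9, 20.3, 16.4 and 17.9 CPM in young naive and 17.9, 16.2, 21.3 and 28.9 in old naive libraries. It was at 22.1, 18.5 and 17.9 in young and 22.9, 23.6 and 20.8 in old asbestos Siglec F-high libraries, and at 30.1, 27.4, 29.4 and 30.8 in young and 34.8, 27.8, 34.2 and 46.6 in old Siglec F-low libraries. Every Siglec F-low library was above every Siglec F-high library of its age from asbestos lungs, while old naive replicate 4, at 28.9 CPM, was above 1 old Siglec F-low library, at 27.8. Mthfd2 was higher in Siglec F-low cells by 0.68 ± 0.17 in old lungs (edgeR adjusted p 0.00818, 0.0135 with 24 libraries) and by 0.59 ± 0.17 in young lungs (0.0198, 0.0636 with 24). The call in young lungs was lost without young asbestos Siglec F-high replicate 2 (adjusted p 0.0973) or 4 (0.0955). Its mean age difference was 0.26 ± 0.09 (edgeR adjusted p 0.0497), lost in 17 of the 22 fits that left out 1 library and with 24 libraries (adjusted p 0.225).

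Shmt2 (ENSMUSG00000025403, chromosome 10, 127517123 to 127522444, minus strand), the mitochondrial enzyme that splits serine and feeds Mthfd2, was at 41.1, 36.3, 38.7 and 39.0 CPM in young naive and 35.0, 28.9, 32.5 and 35.8 in old naive libraries. Asbestos Siglec F-high libraries held 43.0, 38.7 and 43.3 in young and 31.5, 36.7 and 30.8 in old, and Siglec F-low libraries 35.3, 38.5, 39.3 and 42.3 in young and 34.2, 33.8, 37.8 and 35.4 in old. Old was below young without overlap in both Siglec F-high pairs and overlapped in the Siglec F-low pair. The mean age difference of Shmt2, opposite in sign to that of Mthfd2, was -0.23 ± 0.05 (edgeR adjusted p 0.00103, 0.0562 with 24 libraries). In asbestos Siglec F-high cells it was -0.33 ± 0.09 (edgeR adjusted p 0.0286, 0.18 with 24). This call was lost without young asbestos Siglec F-high replicate 1 (adjusted p 0.091) or 4 (0.120) or old asbestos Siglec F-high replicate 1 (0.132) or 4 (0.126).

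Aldh1l2 (ENSMUSG00000020256, chromosome 10, 83487450 to 83534140, minus strand), the mitochondrial formyltetrahydrofolate dehydrogenase, had few reads, with 2, 5, 2 and 3 counts in young naive and 16, 11, 20 and 3 in old naive libraries. It had 9, 5 and 4 counts in young and 9, 10 and 10 in old asbestos Siglec F-high libraries, and 8, 3, 3 and 2 in young and 16, 6, 7 and 15 in old Siglec F-low libraries. Young and old overlapped in naive and Siglec F-low libraries. Aldh1l2 was called higher in old naive cells (2.07 ± 0.57, edgeR adjusted p 0.0239, 0.234 with 24 libraries). That call was lost without young naive replicate 1, 3 or 4 or old naive replicate 1 or 3 (adjusted p 0.0636 to 0.0872). The mean age difference was 1.48 ± 0.33 (edgeR adjusted p 0.00211, 0.00784 with 24). No young library reached the filter's minimum count of 10 for Aldh1l2 either. It passed the filter through old libraries only, and both calls as higher in old are tied to that. Exons of Aldh1l2 share 1056 bases with D10Wsu102e on the opposite strand, so the reads may belong in part to that gene.

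The 3 enzymes that make serine from a glycolytic intermediate were not called in any comparison. Phgdh, the first of them, was at 99.3 to 168 CPM, Psat1, the second, at 11.5 to 26.2 CPM, and Psph, the last, at 7.39 to 12.3 CPM. Psat1 was nearest to a call after asbestos, at 0.42 ± 0.15 in young (edgeR adjusted p 0.107) and 0.44 ± 0.15 in old Siglec F-high cells (0.112). For Phgdh the difference was 0.30 ± 0.10 in young Siglec F-high cells (edgeR adjusted p 0.0763), where every asbestos library was above every naive one.

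Asns (ENSMUSG00000029752, chromosome 6, 7675169 to 7693254, minus strand), asparagine synthetase and a classic target of ATF4, whose promoter match is shown above, had its lowest levels in young naive and its highest in old Siglec F-low libraries. It was at 1.74, 3.78, 2.63 and 2.59 CPM in young naive, 4.78, 4.18, 4.81 and 8.99 in old naive, 6.33, 3.85 and 4.68 in young asbestos Siglec F-high, 8.48, 9.66 and 6.59 in old asbestos Siglec F-high, 10.99, 8.28, 8.45 and 10.1 in young asbestos Siglec F-low and 16.6, 10.6, 13.3 and 13.6 in old asbestos Siglec F-low libraries. The group means were higher in this order except that young asbestos Siglec F-high, at 4.95 ± 1.26 CPM, was just under old naive, at 5.69 ± 2.22 CPM, and these 2 groups overlapped. Within naive and within asbestos Siglec F-high cells every old library was above every young one, and in Siglec F-low cells 1 young library was above 1 old one.

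Asns was higher in old than young naive cells by 1.09 ± 0.25 (edgeR adjusted p 0.00685), a call kept in each fit that left out 1 library, but lost with 24 libraries (adjusted p 0.126) and in a fit of only the 2 groups compared (0.0540). The mean age difference was 0.78 ± 0.14 (edgeR adjusted p 0.000266, 0.00784 with 24). Between the sorts of young lungs Asns was higher in Siglec F-low cells by 0.93 ± 0.25 (edgeR adjusted p 0.0158, 0.0411 with 24 libraries). That call was lost without young asbestos Siglec F-high replicate 2 (adjusted p 0.117) or 4 (0.0676). In old lungs the same difference was 0.71 ± 0.24 and not called (edgeR adjusted p 0.0589). The age differences of 0.74 ± 0.27 in asbestos Siglec F-high and 0.52 ± 0.22 in Siglec F-low cells were not called either (edgeR adjusted p 0.101 and 0.169). Old naive replicate 4, at 8.99 CPM, was the highest of its group, as it was for Atf5, Mthfd2 and Slc7a11. After asbestos the differences in Siglec F-high cells were 0.89 ± 0.27 in young, without overlap, and 0.54 ± 0.25 in old (edgeR adjusted p 0.0542 and 0.247), and neither was called. The libraries left out held 1.85 and 1.73 CPM, below the rest of their groups.

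Aldh18a1 (ENSMUSG00000025007, chromosome 19, 40550257 to 40588463, minus strand), which starts proline synthesis, was at 68.3, 69.1 and 64.0 CPM in young asbestos Siglec F-high against 58.7, 54.0, 53.9 and 53.9 in young Siglec F-low libraries, which did not overlap. The difference was -0.28 ± 0.08 (edgeR adjusted p 0.0234), the only call of this gene, lost in 5 of the 22 fits that left out 1 library and with 24 libraries (-0.03, 0.958). Young naive libraries held 56.1, 61.2, 62.0 and 58.6 CPM and old naive ones 59.9, 49.5, 58.6 and 60.7, while old asbestos libraries held 65.6, 57.5 and 54.4 in Siglec F-high and 61.8, 54.3, 50.6 and 53.1 in Siglec F-low cells. Pck2, the mitochondrial phosphoenolpyruvate carboxykinase, was at 21.04 to 27.4 CPM and not called, with group means within 1.12 times of each other; its promoter match is shown above.

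**Figure D3:**
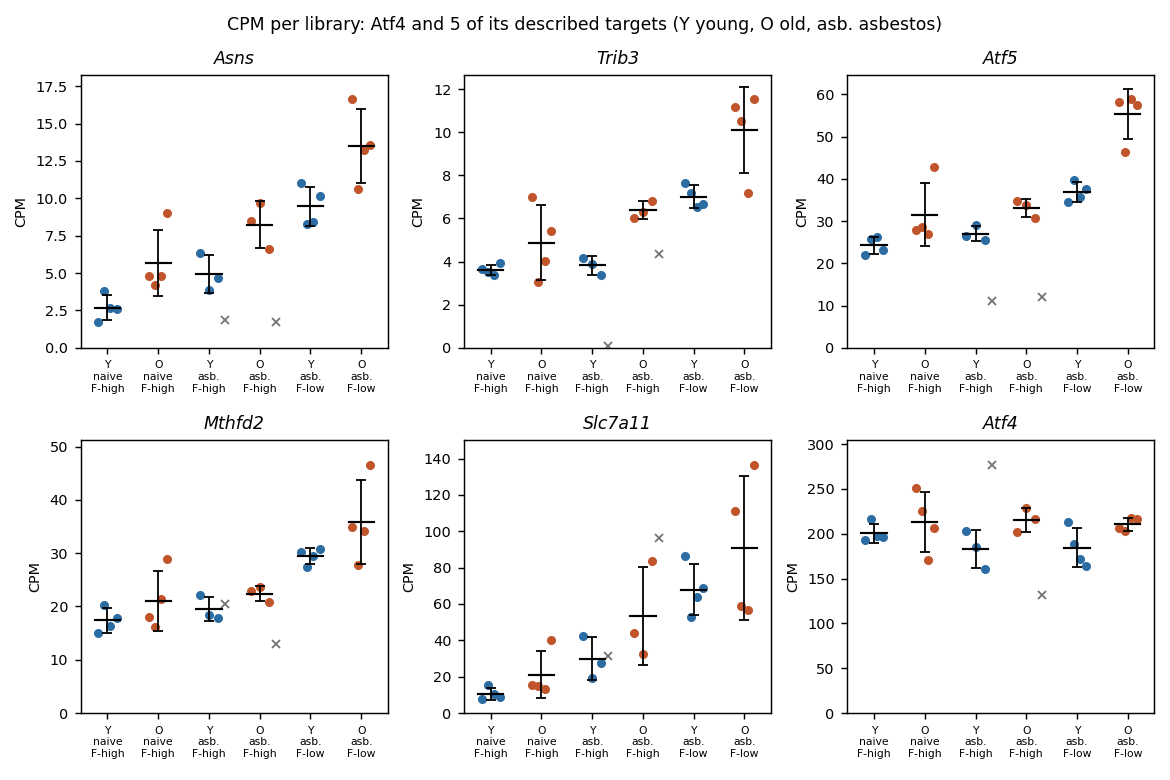
CPM per library (vertical axis, from 0) of Asns, Trib3, Atf5, Mthfd2, Slc7a11 and Atf4 by group (horizontal axis; Y young in blue, O old in orange). Circles are the 22 libraries of the fit, bars their mean ± SD, and grey crosses the 2 libraries left out. By group mean the first 5 genes are highest in old Siglec F-low libraries, with Asns at 10.6 to 16.6 CPM against 1.74 to 3.78 in young naive ones. For all of these but Atf5, single old and young Siglec F-low libraries overlap. Atf4 stays between 161 and 251 CPM in the 22 libraries.

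Among the transporters, Slc7a11 (ENSMUSG00000027737, chromosome 3, 49892526 to 50443614, minus strand), the cystine importer xCT, had group means that differed by up to 8.65 times. It was at 7.57, 15.3, 10.4 and 8.80 CPM in young naive and 15.5, 14.7, 13.3 and 40.3 in old naive libraries. In asbestos lungs it was at 42.6, 19.1 and 27.7 in young and 44.1, 32.4 and 83.6 in old Siglec F-high libraries, and at 86.4, 52.8, 63.6 and 68.8 in young and 111, 58.9, 56.9 and 137 in old Siglec F-low libraries. Naive libraries were low except old naive replicate 4, the only one that reached the asbestos range of old mice, and the Siglec F-low libraries of young mice were all above the Siglec F-high ones.

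Slc7a11 rose after asbestos in young Siglec F-high cells by 1.51 ± 0.41 (edgeR adjusted p 0.0303, 0.0458 with 24 libraries), without overlap. That call was lost in 5 of the 22 fits that left out 1 library, up to an adjusted p of 0.248 without young asbestos Siglec F-high replicate 1. In old Siglec F-high cells it rose by 1.35 ± 0.38 (edgeR adjusted p 0.0488, 0.0686 with 24 libraries), with overlap, and that call was lost in 14 of the 22 fits and with only the 2 groups compared (adjusted p 0.0802). Without old asbestos Siglec F-high replicate 4, the highest of its group, the difference was 0.88 (edgeR adjusted p 0.322). Between the sorts of young lungs it was higher in Siglec F-low cells by 1.19 ± 0.39 (edgeR adjusted p 0.0477, 0.0825 with 24), lost in 10 of the 22 fits. In old lungs this difference was 0.78 ± 0.38 and not called (edgeR adjusted p 0.214). The mean age difference was 0.75 ± 0.22 (edgeR adjusted p 0.015, 0.0203 with 24), lost without old asbestos Siglec F-high replicate 4 (0.0515). Slc7a11 is also a target of NRF2 as background, so it is not a readout of ATF4 alone.

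Slc7a5 (ENSMUSG00000040010, chromosome 8, 121881150 to 121907694, minus strand), the large neutral amino acid transporter LAT1, was lowest in young Siglec F-low cells. It was at 55.1, 53.1, 59.1 and 59.1 CPM in young Siglec F-low libraries, against 85.9, 79.2 and 86.2 in young asbestos Siglec F-high and 94.8, 66.7, 101 and 74.1 in old Siglec F-low libraries. Young naive libraries held 84.5, 90.0, 84.1 and 76.8 CPM, old naive 102, 81.2, 82.4 and 76.7 and old asbestos Siglec F-high 108, 77.2 and 86.8. The 4 young Siglec F-low libraries were thus below all the other 18. Slc7a5 was lower in Siglec F-low than Siglec F-high cells of young lungs (-0.56 ± 0.13, edgeR adjusted p 0.00381) and higher in old than young Siglec F-low cells (0.57 ± 0.12, 0.00351), and each call was kept in every fit that left out 1 library. With 24 libraries these were -0.25 (edgeR adjusted p 0.647) and 0.57 (0.645), and the young library left out held 17.6 CPM, below all others. The mean age difference was 0.24 ± 0.07 (edgeR adjusted p 0.0164, 0.202 with 24), lost without old asbestos Siglec F-high replicate 1 (0.0555).

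Slc7a1 (ENSMUSG00000041313, chromosome 5, 148327410 to 148399904, minus strand), the cationic amino acid transporter that imports arginine, was highest in old Siglec F-low libraries, at 39.7, 32.8, 36.3 and 39.3 CPM, against 23.9, 21.6, 23.3 and 28.1 in young ones, with no overlap. The other groups held 30.9, 28.5, 30.3 and 27.9 in young naive, 24.4, 28.8, 20.3 and 30.6 in old naive, 27.8, 28.5 and 29.97 in young asbestos Siglec F-high and 34.2, 27.9 and 27.4 in old asbestos Siglec F-high libraries. The age difference in Siglec F-low cells was 0.61 ± 0.11 (edgeR adjusted p 0.000989, 0.0288 with 24 libraries), the only comparison of 2 groups in which Slc7a1 was called, and it was kept in every fit that left out 1 library. In naive cells the age difference was -0.18 ± 0.11 (edgeR adjusted p 0.384). Arg1, an enzyme that consumes arginine and is one of the monocyte-derived marker list, was also higher in old Siglec F-low cells, at 459 against 161 CPM (1.51 ± 0.19, edgeR adjusted p 1.96e-05). Slc3a2, the heavy chain that Slc7a5 and Slc7a11 need at the membrane, was at 275 to 467 CPM and not called, with an age difference of 0.27 ± 0.12 in Siglec F-low cells (edgeR adjusted p 0.2).

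**Figure D4:**
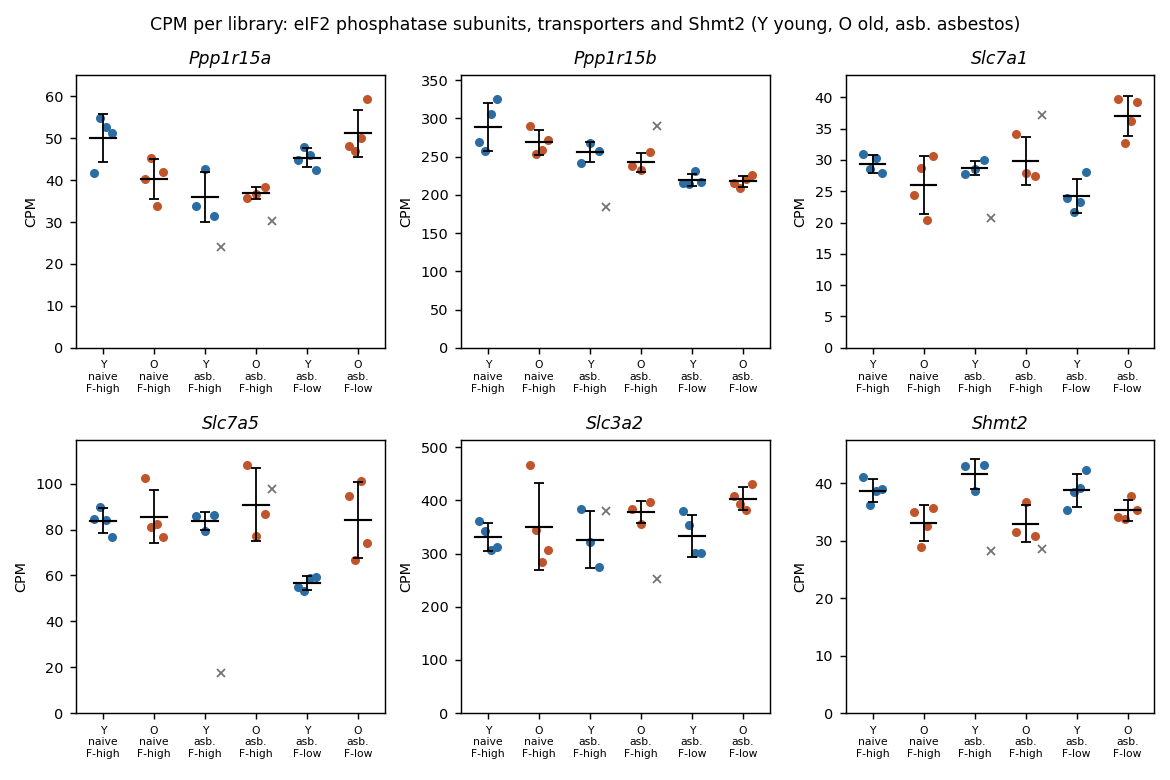
CPM per library (vertical axis, from 0) of the phosphatase subunits Ppp1r15a and Ppp1r15b, the transporters Slc7a1, Slc7a5 and Slc3a2, and Shmt2, by group (horizontal axis; Y young in blue, O old in orange). Circles are the 22 libraries of the fit, bars their mean ± SD, and grey crosses the 2 libraries left out. Slc7a5 is low in young Siglec F-low libraries alone, at 53.1 to 59.1 CPM, and Slc7a1 is high in old Siglec F-low ones, at 32.8 to 39.7 CPM.

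Other genes of the pathway did not follow one direction. Of 26 further genes described as ATF4 targets, 21 were tested. In old against young, edgeR called 2 higher and 3 lower in naive cells, 2 higher and 3 lower in asbestos Siglec F-high cells, and 1 higher and 2 lower in Siglec F-low cells. Ndrg1, a stress-responsive gene, was higher in old naive cells (1.81 ± 0.29, edgeR adjusted p 0.000246), and Herpud1, of protein degradation at the endoplasmic reticulum, was lower in old in all 3 (-0.32, -0.42 and -0.30, edgeR adjusted p 0.0141, 0.00679 and 0.0249). Between the sorts, 2 were higher in Siglec F-low cells and 0 lower in young lungs, and 4 higher and 1 lower in old lungs. Gdf15, a stress cytokine, was higher in Siglec F-low cells of young lungs (1.09 ± 0.19, edgeR adjusted p 0.000438), and Got1, the cytosolic aspartate aminotransferase, in young (0.83 ± 0.19, 0.00495) and in old lungs (0.70 ± 0.19, 0.0161). After asbestos, Gpt2, the mitochondrial alanine aminotransferase, rose in Siglec F-high cells of young (0.60 ± 0.12, edgeR adjusted p 0.00305) and old mice (0.65 ± 0.11, 0.00138). With 24 libraries edgeR called 2 of the 21 between the sorts in each age and 0 after asbestos.

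Of 19 cytosolic tRNA synthetase genes, many of which ATF4 is known to raise, edgeR called Cars alone, higher in old naive cells (0.26 ± 0.07, adjusted p 0.0324), and 0 in the other 6 comparisons of 2 groups. Of 16 further genes of eIF2 and its regulation it called Impact, an inhibitor of GCN2, higher in old asbestos Siglec F-high cells (0.47 ± 0.10, adjusted p 0.00651). Dnajc3, an inhibitor of PERK and PKR, was lower in the same comparison (-0.29 ± 0.08, edgeR adjusted p 0.0329) and rose after asbestos in young Siglec F-high cells (0.46 ± 0.08, 0.000827). Of 15 other one-carbon genes tested, Aldh1l1, the cytosolic counterpart of Aldh1l2, was higher in old in each of the 3 kinds of cell, with 8.71 against 5.38 CPM in naive cells (0.69 ± 0.21, edgeR adjusted p 0.0427). It was at 19.8 against 10.6 CPM in asbestos Siglec F-high (0.90 ± 0.22, edgeR adjusted p 0.0128) and at 33.4 against 17.5 CPM in Siglec F-low cells (0.93 ± 0.18, 0.00220).

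The XBP1 and ATF6 branch, the arm of the unfolded protein response that raises chaperones of the endoplasmic reticulum, differed by sort and by age in part of its genes. Of its 16 genes edgeR called 9 higher and 0 lower in Siglec F-low cells of young lungs and 10 higher and 0 lower in old lungs, such as Hyou1, a chaperone, at 360 against 257 CPM in old (0.49 ± 0.09, adjusted p 0.000596). In old against young, 6 were lower and 0 higher in naive cells, 6 lower and 1 higher in asbestos Siglec F-high cells, and 8 lower and 1 higher in Siglec F-low cells. Hyou1 was lower in old naive (-0.35, edgeR adjusted p 0.00703) and old asbestos Siglec F-high cells (-0.46, 0.00336), and Creld2, a secreted stress protein, in old Siglec F-low cells (-0.43, 0.00955). With 24 libraries these counts were 0 and 1 between the sorts and 0, 8 and 0 lower in old. Creld2 was at 79.5 CPM in old Siglec F-low cells against 107 CPM in young ones. The summed level of the 16 genes was 7125 to 8506 CPM in young and 6181 to 7275 CPM in old Siglec F-low libraries. It was 6055 to 6820 CPM in young and 5165 to 5591 CPM in old asbestos Siglec F-high libraries, and 5136 to 5830 and 4123 to 5142 CPM in young and old naive ones.

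Markers of other cells moved with the sort as well. Siglecf, which defines the sort, was at 280 CPM in young and 184 in old Siglec F-low libraries, against 482 and 496 in Siglec F-high ones of asbestos lungs, on means. Of 16 monocyte-derived marker genes edgeR called 11 higher and 0 lower in Siglec F-low cells of young lungs and 12 higher and 0 lower in old lungs. Their summed level was 8872 to 10921 CPM in young and 11218 to 13076 CPM in old Siglec F-low libraries, against 4196 to 5025 and 4549 to 4916 CPM in Siglec F-high ones, and 2946 to 3202 and 2342 to 3485 CPM in young and old naive ones. In old against young Siglec F-low cells 10 of the 16 were higher and 0 lower. These sums, like the means of Asns, Trib3, Atf5, Mthfd2 and Slc7a11, were highest in old Siglec F-low libraries, and their part in the differences of those genes was not tested. The summed level of 12 resident alveolar macrophage markers was highest there too. It was 17941 to 23760.0 CPM in young naive, 19716 to 22419 CPM in old naive, 27024 to 31002 CPM in young and 40312 to 45143 CPM in old asbestos Siglec F-high libraries, and 39854 to 52344 CPM in young and 57222 to 72319.6 CPM in old Siglec F-low ones. In Siglec F-low libraries most of that sum was Chil3, a chitinase-like secreted protein, with means of 38822 CPM in young and 57112 CPM in old. Single genes of the list went both ways: edgeR called 3 higher and 4 lower in Siglec F-low cells of young lungs, and 2 higher and 5 lower in old lungs. The part of these genes was not tested either.

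All 12 resident markers had counts in each group. Of 16 proliferation genes, 10 were lower in old naive, 10 in old asbestos Siglec F-high and 15 in old Siglec F-low cells, and 0 were higher in any of these. For markers of other lineages, the summed levels per library were 177 to 224 CPM for 8 B cell genes. Those of the 8 epithelial genes described above were 179 to 414 CPM. The sums were 6.17 to 26.4 CPM for 8 T and NK cell genes, 36.4 to 74.6 CPM for 8 neutrophil genes and 0.198 to 6.08 CPM for 4 eosinophil genes. They were 20.6 to 46.6 CPM for 6 dendritic cell genes and 3.84 to 18.2 CPM for 8 endothelial and mesenchymal genes. Ly6g, the defining neutrophil gene, was at 0 in all libraries of 5 of the 6 groups. Of the B cell genes edgeR called 6 lower after asbestos in young and 3 lower in old Siglec F-high cells.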

How the data were processed

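The raw read counts per Ensembl gene of all 24 libraries were in 1 table, with 1 column per library, as the authors deposited it. Per the submitters' processing notes the tools were bcl2fastq 2.19.1, FastQC, Trimmomatic 0.36, STAR 2.6.0 and HTSeq 0.11.2 on mm10, which is the GRCm38 assembly; the annotation and the strand setting are not given in the sources used here. Symbols came from GENCODE M21, which named 42462 of 43430 gene IDs, and IDs without a symbol held 0.117 to 0.196% of counts. Positions, exon lengths and exon overlaps are from the same annotation.

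The deposited counts were fitted with edgeR 4.0.16 (TMM factors, filterByExpr with a minimum count of 10, quasi-likelihood test, 1 coefficient per group). All 6 groups shared 1 estimate of the spread, and p-values were adjusted by Benjamini-Hochberg within each comparison. The 2 libraries of low quality were left out of the fit, and all 24 libraries were an alternative. The others were limma 3.58.1 voom with quality weights on 24 libraries, DESeq2 1.42.0, RLE factors, no filter, only the groups compared, a replicate block, and leaving out each library. CPM are TMM-scaled, and the ± of a log2 fold change is its SE. The edgeR step was tested on simulated data.

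The members, the other gene lists and the tests were chosen with earlier results of these data known. All 37 members were accounted for; values per library are given for those called in any comparison or of the eIF2B complex, Atf4 and Ddit3. From the other lists up to 3 called genes of the smallest p per comparison were named. Deviations of same-numbered libraries of the asbestos sorts had correlations of 0.150, 0.190 and 0.205 in old mice and 0.319, 0.0854 and 0.234 in young mice. The fixed limit of 0.1 counts those of old mice as paired, though no label ties a number to an animal. Libraries that cannot share an animal also passed that limit. These were replicate 2 of old and young naive (0.137), replicate 1 of old and young Siglec F-low (0.1415) and replicate 1 of young asbestos and naive Siglec F-high (0.179). Other such pairs were lower, down to -0.0837, so the limit does not by itself mark pairs. The block, a term per replicate number shared by all groups, left the 4 members called between the sorts of old lungs called. It does not model a pairing of the sorts within an animal, so it cannot show how such pairing would bear on these calls. Counts limit the precision: the median SE was 0.127 to 0.147 for a comparison of 2 groups.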

Additional observations from a re-analysis of the deposited data

Results flagged for a closer look

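In groups of 4 libraries, a sample was singled out where its gap to the nearest of the others was large beside the range of the group (above Dixon's 95% critical value), which chance gives in about 1 in 20 groups. Over the members this happened in 13 of 136 groups tested. All values are CPM, and no cause was tested.

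Old naive replicate 4 stood above its group for Asns (8.99 against 4.18 to 4.81), Atf5 (42.8 against 26.9 to 28.6) and Slc7a11 (40.3 against 13.3 to 15.5). Old naive replicate 1 stood above its group for Pck2 (26.5 against 22.02 to 22.7), and young naive replicate 2 below for Sesn2 (42.2 against 48.2 to 49.2). In young Siglec F-low libraries, replicate 1 was high for Aldh18a1 (58.7 against 53.9 to 54.0) and Aldh1l2 (0.567 against 0.121 to 0.188, at 8 counts or fewer), replicate 2 for Psph (12.3 against 8.26 to 8.94) and replicate 3 for Ppp1r15b (232 against 214 to 217). In old Siglec F-low libraries, replicate 1 was low for Eif2ak2 (31.3 against 35.7 to 35.9), replicate 2 was low for Eif2b1 (22.8 against 24.9 to 25.1) and Atf5 (46.4 against 57.5 to 58.8), and replicate 3 was high for Psph (10.5 against 8.54 to 8.83).

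The 2 libraries left out stood apart in their groups of 4 by the genes with a count, 12528 in the young and 15037 in the old asbestos Siglec F-high group, where the others had 17965 to 18514 and 17690 to 18135. They also did so by the percent of counts on rRNA-related genes, 1.14 against 0.350 to 0.426 in the young and 58.9 against 0.389 to 0.623 in the old group.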

How the results depend on the processing

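No called member reversed under any alternative, and all 34 calls held with limma voom and quality weights on 24 libraries, with RLE factors and with the replicate block. DESeq2 lost 1 of them, no filter 2, only the groups compared 4 of the 21 that it could test, and edgeR with all 24 libraries 23, while 16 were kept under every omission of 1 library. Members called in old against young naive cells numbered 2, against 0 with all 24 libraries, 7 with limma voom, 5 with DESeq2, 4 with no filter, 4 with the replicate block and 0 with only the groups compared. In old against young asbestos Siglec F-high cells, 2 became 0 with 24 libraries, 4 with limma voom and 1 with no filter. For Siglec F-low cells by age, 3 became 1 with 24 libraries, 7 with limma voom and 5 with DESeq2, and for the mean age difference 12 became 4 with 24 libraries. After asbestos, 3 in young became 5 with limma voom, 5 with DESeq2 and 1 with only the groups compared, and 1 in old became 0 with 24 libraries and 0 with only the groups compared. Between the sorts of young lungs 7 became 1 with 24 libraries. Apart from the naive age comparison, the replicate block moved no count by over 1.5 times. Leaving out 1 library at a time gave 1 to 6, 0 to 2, 3 to 5 and 9 to 13 members for the 3 age pairs and their mean, 0 to 4 and 0 to 2 after asbestos in young and old, 3 to 10 and 3 to 5 between the sorts of young and old lungs, and 0 to 0 for both interactions. The naive and the Siglec F-low age comparisons hold neither of the 2 libraries left out, so both fits compare the same libraries there. For these comparisons the fit with 24 libraries differs in the shared spread, the scaling and the filter. The cause of these moves was not tested. Chac1 and Aldh1l2, at 21 counts or fewer in any of the 22 libraries, are limited by depth.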
